A study of Mus musculus with 4 samples.

Results

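The clustered protocadherins are a large family of neuronal adhesion receptors, encoded by the alpha, beta and gamma gene clusters that lie side by side on mouse chromosome 18. They were read here from RNA sequencing of the lateral habenula, a nucleus above the thalamus through which the forebrain reaches dopamine and serotonin neurons. Members were all gene identifiers of the deposited count matrix that GENCODE M21, an annotation of GRCm38, gives as protein-coding with a symbol of one of the clusters. There were 57 members of 53465 identifiers: 14 in the alpha, 22 in the beta and 21 in the gamma cluster. Pcdhgb8 was left out because it is annotated as a polymorphic pseudogene. It held 116 counts over all libraries.

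The tissue came from socially isolated and from group-housed C57BL/6 mice, with 2 libraries in each group. The study asks whether acute isolation alters this nucleus. The sources used here do not give the length of isolation, the age or sex of the mice or the number of animals behind each library. The p-values therefore set the difference between groups only against the spread between these libraries, and that spread may be technical. The libraries held between 20897605 and 26428152 counts, of which members took 0.0469 to 0.0496%.

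Clustered protocadherins sit on the cell surface and bind copies of themselves on a facing membrane. In mouse neurons each cell is known to switch on a limited, largely random set of alpha, beta and gamma genes. The boundary factor CTCF and the cohesin ring bring the chosen promoter to a distant enhancer, and DNA methylation holds the others silent. The C-type genes at the ends of the alpha and gamma clusters are known to be used in a more uniform, cell-type-dependent way. The resulting surface code serves self-avoidance of dendrites and axons, axon tiling and neuronal survival in mice.

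In outline, every C-type gene and all but 3 of the other members gave enough reads to be tested. The gamma C-type gene Pcdhgc3 stood far above the rest per length. No member passed the test of isolated against group-housed habenula. For 53 of the 54 tested members the 95% interval of the log2 fold change lay within 1 of 0, that is, within a 2-fold change in either direction. A log2 fold change is isolated over group-housed throughout, and its interval is taken from the test's standard error.

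How the genes are built sets what a count can show. Each alpha gene joins its own first exon to constant exons common to the whole alpha cluster, and each gamma gene does the same with the gamma constant exons. The shared part came to a median of 53.6% of annotated exon bases in the alpha cluster (range 38.9 to 91.4%) and 44.6% in the gamma cluster (range 31.5 to 66.8%). Beta genes have no constant exons, and 20 of the 22 shared no exon base with another gene on their strand. Pcdhb21 and Pcdhb22 overlap each other.

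The matrix itself shows how reads in shared exons were treated. Of 703 genes with no exon base of their own on their strand, 695 were listed at 0 in all libraries. Of 447 genes covered fully by exons of the opposite strand and by none of their own strand, 213 had at least 1 count. Pcdhga10 has 0 own bases when both strands are considered and 2613 when only its own strand is, and it collected 939 counts. Counts of alpha and gamma genes therefore rest on exon bases that no other gene shares on the sense strand. These bases are largely the isoform-specific first exon, though some members, such as Pcdhgb4 and Pcdhgc4, have further own bases. Reads that lie wholly in the constant exons appear to be in no member's count. How reads joining an own exon to a constant exon were counted was not stated. Levels below are CPM, counts scaled to library size, divided by kilobases of own exon on the same strand, a choice made after the counting had been seen.

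**Figure D1:**
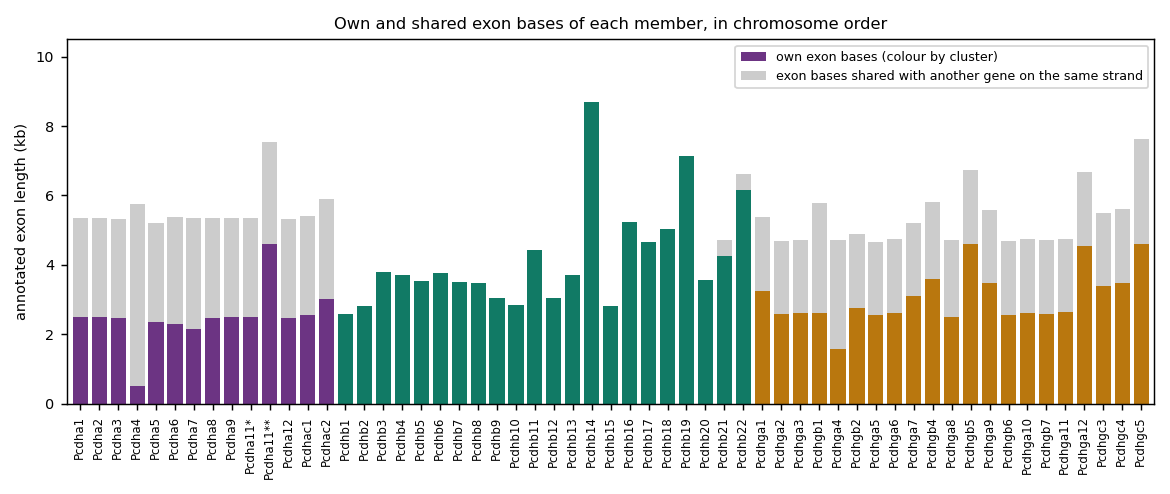
Annotated exon length in kilobases of each of the 57 members in chromosome order. Coloured bars are bases that belong to no other counted gene on the same strand (purple alpha, green beta, orange gamma), and grey bars are bases shared with another gene. Pcdha4 keeps 494 of 5768 bases, while 20 beta genes keep all of theirs. Pcdha11* is ENSMUSG00000007440 and Pcdha11** is ENSMUSG00000102206.

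Near-identical stretches between members add a further limit. Of all 50-base windows in the first exon, a median of 14.8% recurred exactly in a transcript of another gene among alpha members (range 10.2 to 26.6%). The median was 11.2% among gamma-B members (2.67 to 16.8%), 3.48% among beta members (0 to 12%) and 0.459% among gamma-A members (0 to 4.25%). For all 5 C-type genes it was 0%. Reads inside such windows may be lost or misplaced among relatives, and the read length and the handling of multiply mapped reads were not stated. Pcdha6 had the highest share of all members (26.6%), followed by Pcdha7 (23.6%) and Pcdha8 (18.8%).

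The alpha cluster spans 36930184 to 37187661 on chromosome 18 (GRCm38), the beta cluster 37264938 to 37524479 and the gamma cluster 37661793 to 37841873, all on the plus strand. A pair of identifiers share the symbol Pcdha11. ENSMUSG00000007440 starts at 37005203, where RefSeq's table of the same build places Pcdha10 (start 37005320). ENSMUSG00000102206 starts at 37010712, near RefSeq's Pcdha11 (37010858). They are given by identifier here.

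The 5 C-type genes ranged from the highest member to one of the low ones, at 23.1 CPM per own kilobase for Pcdhgc3, 7.42 for Pcdhgc4, 6.11 for Pcdhac2, 2.08 for Pcdhgc5 and 0.661 for Pcdhac1. Pcdhgc3, which in mouse cortex promotes dendrite branching and binds the Wnt pathway protein Axin1, measured 76.7 and 76.6 CPM in isolated libraries and 82.7 and 76.3 CPM in group-housed libraries. Per own kilobase this came to 22.7 and 22.7 CPM in isolated and 24.5 and 22.6 CPM in group-housed libraries. The groups overlapped, and no library of any other member came near this level. Its difference between groups was the most tightly bounded of all members, with a log2 fold change of -0.05 (SE 0.07) and a 95% interval from -0.20 to 0.10.

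Pcdhgc4, the isoform whose loss in mice removes many interneurons, measured 29.2 and 22.2 CPM in isolated libraries and 25.2 and 26.6 CPM in group-housed ones. Both the highest and the lowest library were isolated. The log2 fold change was -0.01 (SE 0.13, 95% interval -0.30 to 0.28). Pcdhgc5 measured 10.2 and 8.61 CPM in isolated libraries and 7.99 and 11.4 CPM in group-housed ones, and here the extremes were both group-housed. Its log2 fold change was -0.05 (SE 0.18, 95% interval -0.47 to 0.37).

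Pcdhac2, which in mice spaces the axons of serotonergic neurons, measured 20.6 and 16.8 CPM in isolated libraries and 17.4 and 19.2 CPM in group-housed ones. The log2 fold change was 0.03 (SE 0.12, 95% interval -0.24 to 0.31). Per own kilobase Pcdhac2 held 34.0 ± 0.581% of the alpha cluster's summed level in isolated and 36.3 ± 1.67% in group-housed libraries (SD, n = 2 each), against at most 9.84% for any other alpha member in any library. Pcdhgc3 likewise held 25.7 ± 1.20% of the gamma cluster's summed level in isolated and 26.3 ± 1.43% in group-housed libraries.

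Pcdhac1 was the least stable member. It measured 2.44 and 1.06 CPM in isolated libraries, from 64 and 28 counts, and 1.56 and 1.71 CPM in group-housed libraries, from 32 and 44 counts. The isolated libraries enclosed both group-housed ones. Exact Poisson 95% intervals, which cover counting error only, were 1.88 to 3.11 CPM in isolated replicate 1 and 0.703 to 1.53 CPM in isolated replicate 2, so those 2 libraries differed by more than counting error. The log2 fold change was 0.09 with the widest standard error of all members (0.38), and leaving out isolated replicate 1 gave -0.63, whereas leaving out isolated replicate 2 gave 0.57.

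**Figure D2:**
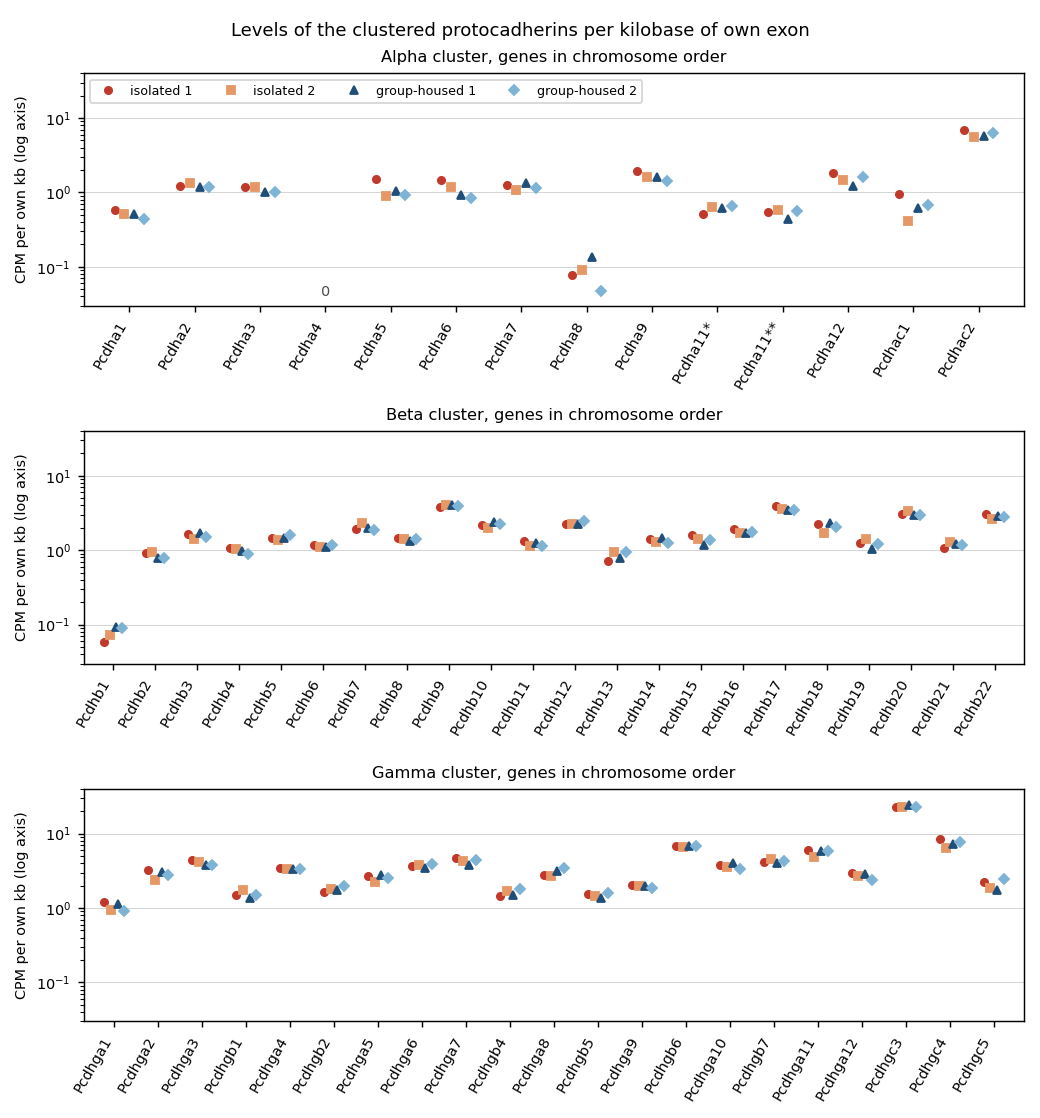
CPM per kilobase of own exon (log axis) for each member in chromosome order, in the alpha, beta and gamma clusters. Each gene has 4 points, isolated replicates 1 and 2 and group-housed replicates 1 and 2. Pcdhgc3 stands highest at 22.6 to 24.5, Pcdhb1 and Pcdha8 lie lowest, and Pcdha4 is listed at 0. Pcdha11* is ENSMUSG00000007440 and Pcdha11** is ENSMUSG00000102206.

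After Pcdhgc3, the order by mean level per own kilobase was Pcdhgc4 (7.42 CPM), Pcdhgb6 (6.76), Pcdhac2 (6.11), Pcdhga11 (5.61), Pcdhga7 (4.32) and Pcdhgb7 (4.25). The ranges over libraries of Pcdhgc4 (6.40 to 8.40 CPM per own kilobase), Pcdhgb6 (6.57 to 6.87), Pcdhac2 (5.55 to 6.82) and Pcdhga11 (4.83 to 6.02) each overlapped the next. The order of neighbours among them is therefore within the spread, while Pcdhgc4 and Pcdhgb6 both lay above Pcdhga11 in every library. Pcdhgc3 was clear of Pcdhgc4, and Pcdhga11 of Pcdhga7 (3.82 to 4.71), in every library. By subfamily the median member stood at 6.11 CPM per own kilobase for the C-type genes, 3.19 for gamma-A, 1.70 for gamma-B, 1.43 for beta and 1.09 for the other alpha genes. The 5 C-type genes together held 26.3 to 27.6% of the summed per-length level of all 57 members in a library. The 12 gamma-A genes held 26.1 to 27.3%, the 22 beta genes 26.2 to 27.4%, the 6 gamma-B genes 11.4 to 12.7% and the 12 other alpha genes 6.88 to 8.01%. These levels rest on unlike parts of the transcripts, since the constant exons are left out for alpha and gamma genes only. The share of windows recurring in relatives differed between subfamilies too. Coverage along the transcripts was not tested, so the order of subfamilies is a description of these counts. For scale, the unclustered relative Pcdh9 stood at 26.0 CPM per own kilobase, Pcdh10, a habenular marker, at 17.5 and Pcdh17 at 14.5.

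At the low end, 3 members were too sparse to test. Pcdha4 was listed at 0 in every library. All but 494 of its 5768 exon bases are shared, with the constant exons' users and with Gm42416, an annotated gene that also stood at 0, so this value covers only those bases. Pcdhb1, the first gene of the beta cluster, held 4 and 5 counts in isolated and 5 and 6 counts in group-housed libraries, over 2588 bases of its own. Pcdha8 held 5 and 6 counts in isolated and 7 and 3 in group-housed libraries, over 2478 own bases. Both genes have countable sequence of their own and gave few reads in all 4 libraries. The floor that a count of 0 allows (3 counts) was 0.114 and 0.113 CPM in isolated and 0.146 and 0.117 CPM in group-housed libraries.

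The comparison of isolated with group-housed habenula was made with edgeR's quasi-likelihood test on 17528 genes. Of these, 2 genes (0.0114%) passed at an adjusted p below 0.05, and 0 of the 54 tested members did. Adjusted p-values of members ran from 0.912 upwards. With limma-voom 0 members passed either, where 0.0114% of genes were called higher and 0% lower. With DESeq2 it was 0 members, where 0.272% of genes were called higher and 0.0664% lower, and with edgeR's exact test 0 members, where 0.382% were called higher and 0.0856% lower. At an unadjusted p below 0.05 in the quasi-likelihood test, 1 member was higher and 0 were lower, where 2.83% of all tested genes were higher and 2.26% lower. That member, Pcdha6, was also below an unadjusted 0.05 with limma-voom and the exact test, and DESeq2 gave 0 members there. Only Pcdha6 had a log2 fold change beyond 0.5 in size, as did 5.34% of all tested genes. In bulk tissue fewer cells of a type and less RNA per cell cannot be told apart.

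The sums over subfamilies show how close the groups were. The beta genes summed to 164 ± 4.496 CPM in isolated and 161 ± 1.85 CPM in group-housed libraries (SD, n = 2 each). Gamma-A genes summed to 107 ± 8.31 CPM in isolated and 107 ± 2.11 CPM in group-housed libraries, and gamma-B genes to 49.98 ± 1.26 CPM in isolated and 49.8 ± 2.77 CPM in group-housed libraries. C-type genes summed to 132 ± 9.86 CPM in isolated and 135 ± 0.324 CPM in group-housed libraries. Each of these differences was smaller than the larger of its SDs.

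The alpha genes other than the C-type ones were the exception in order. They summed to 30.2 and 26.8 CPM in isolated libraries and 24.96 and 25.2 CPM in group-housed libraries. The groups did not overlap, with a ratio of means of 1.14, and the SD of 2.42 CPM in isolated libraries exceeded that of 0.152 CPM in group-housed ones. With the C-type genes included, the cluster gave 53.3 and 44.6 CPM in isolated and 43.9 and 46.1 CPM in group-housed libraries, which overlap. Its log2 ratio of 0.12 was -0.01 without isolated replicate 1.

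**Figure D3:**
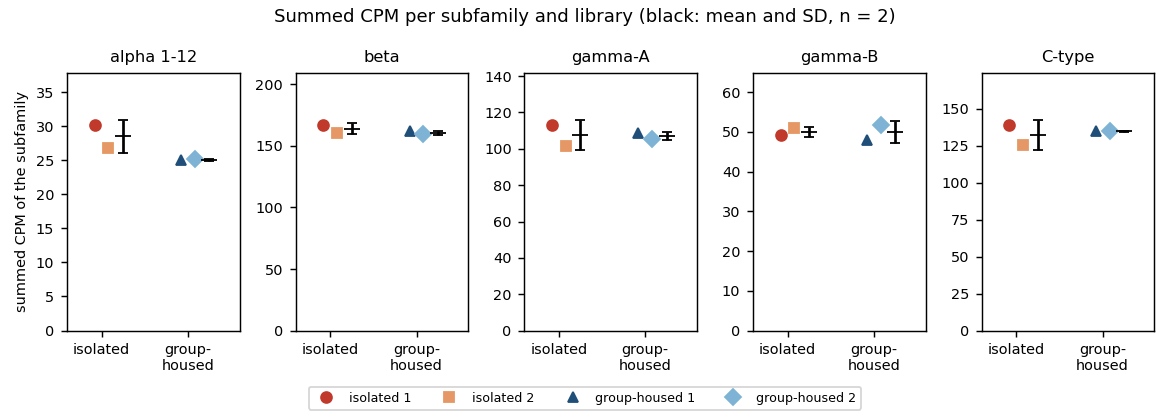
Summed CPM of the members of each subfamily per library, isolated left and group-housed right, with the mean and SD in black (n = 2). In alpha 1-12 the isolated points (30.2 and 26.8) lie above the group-housed ones (24.96 and 25.2), and in the other 4 panels the groups overlap.

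Within the alpha cluster 10 of 12 tested genes had a fitted log2 fold change above 0, where 51.2% of all tested genes did, and 2 below, where 48.8% did. Their median was 0.17, and that of all tested genes 0.0033. The 2 isolated values exceeded the 2 group-housed values for 5 of the 12, against 17.4% of all tested genes, and were lower for 0, against 16.3%. Those 5 were Pcdha1, Pcdha2, Pcdha3, Pcdha6 and Pcdha9. The direction leaned on isolated replicate 1, in which 8 of the 12 alpha genes had their highest value, where 25.3% of all tested genes did. The same library was highest for 7 of the 21 tested beta genes and 9 of the 21 gamma genes. The alpha cluster's median log2 fold change was 0.06 without that library and also without group-housed replicate 1, and 0.26 without isolated replicate 2.

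Pcdha6 measured 3.35 and 2.72 CPM in isolated libraries and 2.096 and 1.95 CPM in group-housed libraries, from 88 and 72 counts and from 43 and 50 counts. The groups did not overlap. The log2 fold change was 0.59 (SE 0.23, 95% interval 0.06 to 1.12) and edgeR's adjusted p = 0.912. It ranged from 0.43 to 0.73 over the fits that left out a library. Part of its variable sequence overlaps Gm37013 on the same strand, and Pcdha6 is also the member with the most windows shared with relatives.

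Pcdha9, the highest of the alpha genes other than the C-type ones per own kilobase (1.65 CPM), measured 4.84 and 4.04 CPM in isolated and 3.95 and 3.58 CPM in group-housed libraries. The isolated libraries lay above, though the nearest pair differed by little, and the log2 fold change was 0.24 (SE 0.19). Pcdha12 measured 4.46 and 3.59 CPM in isolated and 3.02 and 4.01 CPM in group-housed libraries, with overlap (0.19, SE 0.22). Leaving out group-housed replicate 1 brought its log2 fold change to 0.0058, and leaving out isolated replicate 1 to 0.017. Omitting isolated replicate 2 gave 0.33, and omitting group-housed replicate 2 gave 0.40. Pcdha2 measured 3.01 and 3.36 CPM in isolated and 2.97 and 2.996 CPM in group-housed libraries (0.09, SE 0.20). The alpha members that leaned lower were ENSMUSG00000007440, one of the identifiers named Pcdha11, at 1.29 and 1.59 CPM in isolated and 1.56 and 1.63 CPM in group-housed libraries (-0.15, SE 0.27), and Pcdha7 at 2.67 and 2.30 CPM in isolated and 2.83 and 2.49 CPM in group-housed libraries (-0.09, SE 0.22). Both overlapped between groups. These alpha genes rest on 26 to 127 counts per library, and their 95% intervals reach up to 1.12 on the log2 scale at Pcdha6 and 0.93 at Pcdha5.

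Of the 21 tested beta genes 12 had a log2 fold change above 0 and 9 below, with a median of 0.02 and a range from -0.15 to 0.24. The isolated libraries were both higher than the group-housed ones for 7 genes (17.4% of all tested genes) and both lower for 2 (16.3% of all tested genes). Of all tested genes 51.2% had a log2 fold change above 0 and 48.8% below. Pcdhb9, the highest beta gene per own kilobase (3.94 CPM), measured 11.5 and 12.2 CPM in isolated and 12.4 and 12.02 CPM in group-housed libraries (log2 fold change -0.04, 95% interval -0.31 to 0.22). Pcdhb17 measured 18.2 and 16.7 CPM in isolated and 16.4 and 16.2 CPM in group-housed libraries (0.10, 95% interval -0.13 to 0.32). Pcdhb20 measured 10.9 and 12.05 CPM in isolated and 10.4 and 10.7 CPM in group-housed libraries (0.12, 95% interval -0.16 to 0.40). Pcdhb9 overlapped between groups and the other 2 did not.

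The beta genes that leaned furthest also missed the threshold. Pcdhb19 measured 9.06 and 10.01 CPM in isolated and 7.51 and 8.56 CPM in group-housed libraries, a log2 fold change of 0.24 (SE 0.14) with edgeR's adjusted p = 0.979. Pcdhb15 measured 4.53 and 3.97 CPM in isolated and 3.31 and 3.85 CPM in group-housed libraries (0.24, SE 0.19). In the other direction Pcdhb10 measured 6.17 and 5.74 CPM in isolated and 6.78 and 6.497 CPM in group-housed libraries (-0.15, SE 0.15). Pcdhb18 measured 11.4 and 8.65 CPM in isolated and 11.7 and 10.4 CPM in group-housed libraries (-0.14, SE 0.16). The first 3 of these did not overlap between groups, and Pcdhb18 did. Along the chromosome, the level per own kilobase of beta genes correlated weakly with gene order (Spearman's rho 0.41 over 22 genes of the same libraries), from Pcdhb1 as the lowest to Pcdhb22 at 2.85 CPM.

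Of the 21 gamma genes 10 had a log2 fold change above 0 and 11 below, with a median of -0.01 and a range from -0.28 to 0.17. The isolated libraries were both higher for 1 gene, Pcdhga3, and both lower for 1, Pcdhga8, fewer in each direction than the background shares given above. Pcdhga8 measured 7.05 and 6.65 CPM in isolated and 7.90 and 8.68 CPM in group-housed libraries, a log2 fold change of -0.28 (SE 0.14) with edgeR's adjusted p = 0.979. Pcdhga3 measured 11.4 and 10.7 CPM in isolated and 9.89 and 9.80 CPM in group-housed libraries (0.17, SE 0.12).

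The abundant gamma genes gave narrow intervals. Pcdhgb6, the highest of them outside the C-type, measured 17.5 and 16.8 CPM in isolated and 17.4 and 17.6 CPM in group-housed libraries (log2 fold change -0.03, 95% interval -0.25 to 0.18). Pcdhga11 measured 15.9 and 12.7 CPM in isolated and 15.4 and 15.2 CPM in group-housed libraries (-0.10, 95% interval -0.39 to 0.20). Pcdhga7 measured 14.6 and 13.2 CPM in isolated and 11.8 and 13.8 CPM in group-housed libraries (0.11, 95% interval -0.17 to 0.39). Pcdhgb2 measured 4.57 and 4.91 CPM in isolated and 4.87 and 5.49 CPM in group-housed libraries (-0.13, SE 0.17). All 4 overlapped between groups.

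**Figure D4:**
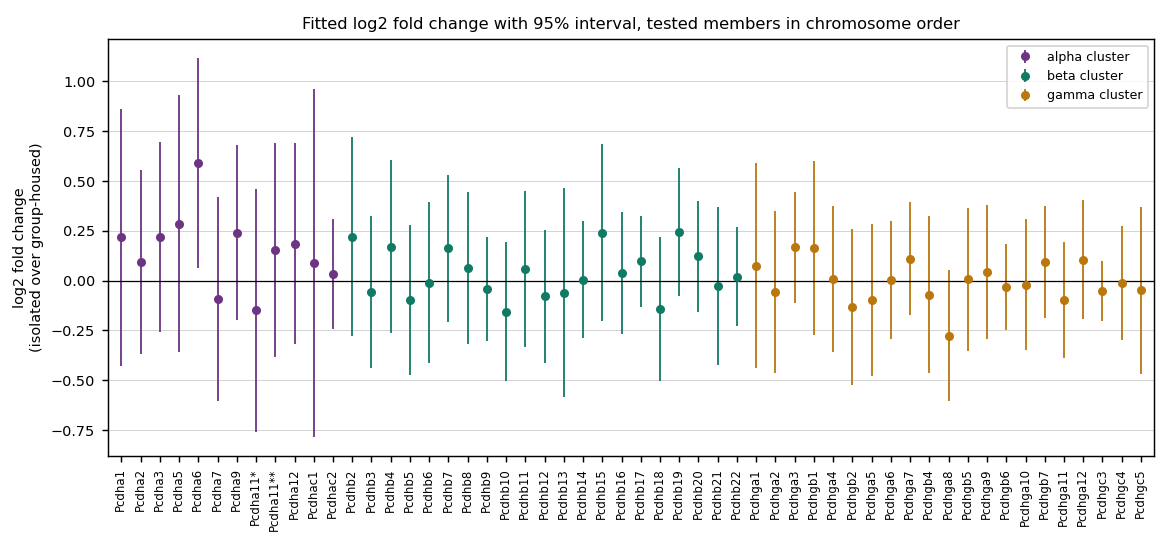
Fitted log2 fold change, isolated over group-housed, of the 54 tested members in chromosome order, with 95% intervals from the quasi-likelihood standard error (purple alpha, green beta, orange gamma). The interval of Pcdha6 (0.06 to 1.12) is the only one that leaves out 0 before adjustment for the number of genes, and that of Pcdhgc3 is the narrowest.

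**Figure D5:**
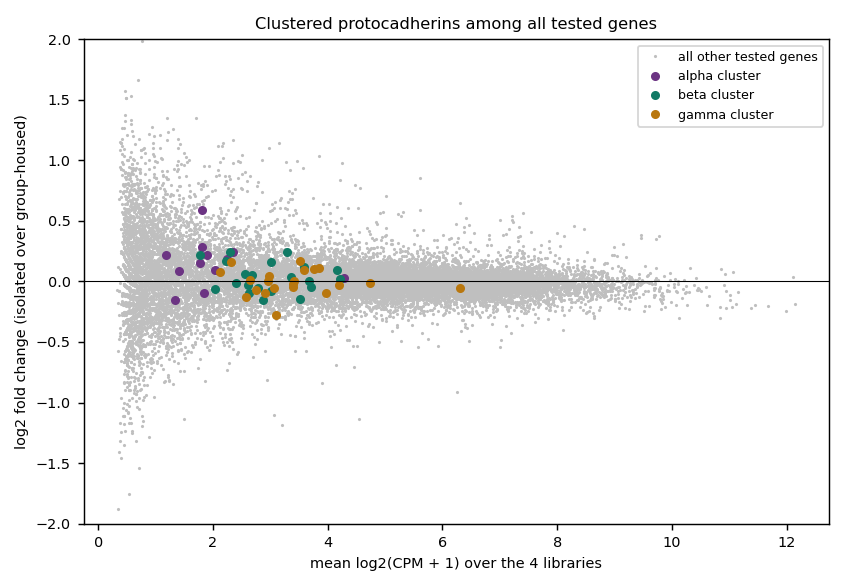
Log2 fold change against mean log2(CPM + 1) for all 17528 tested genes (grey, with 2 genes beyond the axis) and the members by cluster. The members lie within the cloud of genes of like level, and Pcdha6 is the member furthest from 0 at 0.59.

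Genes around the clusters were read from lists. Of 15 chromatin regulators of the clusters, 7 had a log2 fold change above 0 and 8 below (median -0.0046), and none passed. Ctcf, the boundary factor, measured 73.4 and 72.8 CPM in isolated and 75.0 and 73.6 CPM in group-housed libraries. Mau2, a cohesin loader, measured 121 and 120 CPM in isolated and 110 and 113 CPM in group-housed libraries (0.11, SE 0.06). Rad21, a cohesin subunit, measured 168 and 159 CPM in isolated and 179 and 167 CPM in group-housed libraries (-0.08, SE 0.07). The isolated libraries were both higher for 4 of the 15, among them Mau2, where 17.4% of all tested genes were. They were both lower for 1, Ctcf, by little, where 16.3% of all tested genes were. Rad21 overlapped between groups.

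Of 12 tested unclustered protocadherins 5 had a log2 fold change above 0 and 7 below (median -0.03), and none passed. Pcdh20 measured 19.1 and 18.3 CPM in isolated and 14.8 and 15.3 CPM in group-housed libraries, without overlap (0.31, SE 0.10, edgeR adjusted p = 0.780). Pcdh7 measured 69.8 and 55.1 CPM in isolated and 70.9 and 69.2 CPM in group-housed libraries (-0.17, SE 0.10). Of 16 other adhesion genes 7 were above 0 and 9 below (median -0.01), and none passed. The cadherin gene Cdh8 measured 132 and 129 CPM in isolated and 121 and 109 CPM in group-housed libraries (0.19, SE 0.07), and Cdh11 measured 63.2 and 65.6 CPM in isolated and 73.1 and 69.8 CPM in group-housed libraries (-0.15, SE 0.06).

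Of 20 intracellular partners and cleavage enzymes 2 had a log2 fold change above 0 and 18 below, with a median of -0.06, and none passed. The isolated libraries were both lower for 10 of the 20 and both higher for 0, where 16.3% of all tested genes were both lower and 17.4% both higher. A log2 fold change below 0 was found for 48.8% of all tested genes. Ptk2b, the kinase Pyk2 that clustered protocadherins restrain, measured 21.02 and 13.6 CPM in isolated and 25.5 and 24.6 CPM in group-housed libraries, without overlap (-0.53, SE 0.17, edgeR adjusted p = 0.789). Prkca, a protein kinase C gene, measured 75.6 and 71.7 CPM in isolated and 77.9 and 67.9 CPM in group-housed libraries (0.02, SE 0.08).

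The tissue's markers were present, with no marker at 0 in all libraries. The 10 lateral habenula markers summed to 1597 to 1720 CPM in isolated and 1548 to 1650 CPM in group-housed libraries, with 5 log2 fold changes above 0 and 5 below. Both isolated libraries were higher for 5 of the 10 and lower for 1, against 17.4% and 16.3% of all tested genes. At an unadjusted p below 0.05 in the quasi-likelihood test 5 were higher and 0 lower, against 2.83% and 2.26%. After adjustment 0 passed. The 10 neuronal markers summed to 4867 to 5317 CPM in isolated and 5121 to 5393 CPM in group-housed libraries, with 2 log2 fold changes above 0 and 8 below. Markers of neighbouring regions and of glia differed in balance, where 51.2% of all tested genes had a log2 fold change above 0 and 48.8% below. The 12 medial habenula markers summed to 2110 to 2116 CPM in isolated and 1697 to 1780 CPM in group-housed libraries (10 above 0, of which 2 passed, Slc5a7 and Chrnb3, the 2 genes that make up the 0.0114% called over all genes), and the 12 thalamus markers to 1083 to 1332 CPM in isolated and 1373 to 1510 CPM in group-housed libraries (12 below 0). The thalamus list holds Slc17a6 and Tcf7l2, and its genes were not checked for expression in the habenula. The hippocampus and cortex markers summed to 424 and 462 CPM in isolated and 365 and 375 CPM in group-housed libraries, without overlap (6 of 8 tested above 0). The 10 astrocyte markers summed to 4718 and 4689 CPM in isolated and 5251 and 4880 CPM in group-housed libraries (9 below 0), and the 10 microglia markers to 373 and 368 CPM in isolated and 428 and 389 CPM in group-housed libraries (10 below 0). The 10 oligodendrocyte markers summed to 10534 and 12381 CPM in isolated and 13875 and 12876 CPM in group-housed libraries (10 below 0), lowest in isolated replicate 1, where most alpha genes were highest. The 10 ependymal markers summed to 91.8 and 186 CPM in isolated and 86.8 and 82.8 CPM in group-housed libraries (9 of 9 tested above 0). Both isolated libraries were higher for 8 of the 9, against 17.4% of all tested genes, and 0 passed after adjustment. The part of these shifts in the values of the alpha genes was not tested.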

How the data were processed

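RNA was extracted with Trizol and sequenced after stranded poly(A) library preparation, per the labels' protocols. The authors deposited raw read counts per Ensembl gene for 4 libraries, used for every value. Their normalized files are those counts times a constant per library and were not used. Tools in the submitters' processing notes are edgeR, HTSeq, TopHat2 2.1.1 and CASAVA, with GRCm38 as build. The annotation release and counting settings were not stated. GENCODE M21 matched 53360 of 53465 identifiers and gave symbols, coordinates and exon lengths.

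The housing contrast was fitted in R 4.3.3 by edgeR 4.0.16: filterByExpr (17528 genes kept), TMM, glmQLFit, glmQLFTest, no covariate, 2-sided, with Benjamini-Hochberg adjusted p-values over every gene kept and a threshold of 0.05. Variation between libraries, as edgeR's common biological coefficient, came to 7.20%, with 2 residual and 6.55 prior degrees of freedom. Standard errors are the log2 fold change over the square root of F, and 95% intervals multiply them by 2.28. CPM used TMM effective library sizes. Own exon length counts bases of no other gene of the matrix on the same strand, where the planned length took either strand. Alternatives were limma 3.58.1 (voom), DESeq2 1.42.0, edgeR's exact test, other scalings and filters, a replicate block and leaving out each library. The fitting was tested on simulated data, with changes larger than any seen in the members and in genes with more counts than most alpha genes. How well small changes at low counts are recovered was not tested. Poisson intervals and floors cover counting error only, while the intervals of fold changes include the spread between libraries.

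Named genes were all C-type genes, set apart from their clusters, then among the other genes of each cluster the 3 highest per own kilobase and the 2 with the smallest p in each direction, and, per list, the smallest p in each direction. Pcdha1, Pcdha3, Pcdha4, Pcdha5, Pcdha8, Pcdhb1, Pcdhb21, Pcdhb22, Pcdhga10, Pcdhgb7, Ctcf, Slc5a7, Chrnb3, Pcdh9, Pcdh10 and Pcdh17 were added after their values were seen. The members and lists were chosen with earlier results of these data known.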

Additional observations from a re-analysis of the deposited data

How the results depend on the processing

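No clustered protocadherin passed the adjusted threshold in any alternative fit on all 4 libraries. Over all 12 alternative fits, 275 of 288 refitted values of the 24 named members kept their direction. Most of those fits reused the same 4 libraries, so a kept sign there was close to given. Apart from limma-voom's value for Pcdhac1, each change of sign came from leaving out a library. Many of the named members had also been chosen by their p in these data. The number of genes passing over all genes, 2 in the quasi-likelihood fit, was 15 with no low-count filter, 51 with DESeq2, 82 with edgeR's exact test and 64 with the replicate number as a block, and 1 to 221 when a library was left out. The replicate block, whose numbers are not said to mark a shared animal or day (correlation of same-numbered deviations 0.15 over 17528 genes), left 0 members passing. When each library was left out in turn, the median log2 fold change ran from 0.059 to 0.26 in the alpha, from 0.0013 to 0.052 in the beta and from -0.053 to 0.045 in the gamma cluster, and the log2 ratio of summed CPM from -0.011 to 0.24 (alpha) and from -0.066 to 0.034 (gamma). Members with the isolated libraries above the group-housed ones then numbered 19 to 28 (13 with all 4 libraries), and below 9 to 20 (3 with all 4). With all 4 libraries, 17.4% of all tested genes lay above and 16.3% below. Groups of 3 libraries are easier to separate, and the matching share over all tested genes is not given here. The counts from 3 libraries are therefore not read as a lean in either direction. The fold changes that turned sign when a library was left out ran from -0.20 to 0.011 for Pcdha7, -0.63 to 0.57 for Pcdhac1, -0.13 to 0.17 for Pcdhac2, -0.086 to 0.0013 for Pcdhb9, -0.35 to 0.044 for Pcdhb18, -0.26 to 0.056 for Pcdhga11, -0.12 to 0.0080 for Pcdhgc3, -0.22 to 0.17 for Pcdhgc4 and -0.27 to 0.23 for Pcdhgc5. Others kept their sign but moved by over 1.5 times, from 0.0058 to 0.40 for Pcdha12, 0.0060 to 0.22 for Pcdhga7, 0.012 to 0.17 for Pcdha2, 0.11 to 0.37 for Pcdha9, -0.30 to -0.013 for ENSMUSG00000007440, 0.14 to 0.35 for Pcdhb15, 0.030 to 0.16 for Pcdhb17, 0.052 to 0.19 for Pcdhb20, 0.16 to 0.34 for Pcdhb19, -0.21 to -0.10 for Pcdhb10, -0.21 to -0.049 for Pcdhgb2 and -0.059 to -0.0041 for Pcdhgb6. Limma-voom gave -0.034 for Pcdhac1. Dividing by all exonic bases gave a median level of 0.476 CPM per kilobase in the alpha cluster (1.09 by own bases) and 1.5996 in the gamma cluster (3.02 by own bases), because shared bases enter the length and not the counts. The planned length over either strand changed the order. Pcdhgc3 stayed highest at 42.9 CPM per kilobase, and Pcdhga11 (11.8) came above Pcdhgc4 (7.42). Pcdhb12 (6.39, against 2.33 on the same strand) came above Pcdhb9 (3.94), and Pcdhga10 had no value. Counts of 26 to 127 per library in most alpha genes limit their precision.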
